A study of Mus musculus with 32 samples.

Results

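Islets of mice that make human islet amyloid polypeptide (hIAPP) were compared with islets of mice that make the mouse peptide (mIAPP), both cultured at 11.1 mM glucose. The comparison uses 16 of the 32 libraries of the series, 8 per genotype, chosen by the glucose level and genotype in the labels, and libraries are paired by the set of experiments to which they belong. In the hIAPP mice the mouse Iapp gene was replaced by the human gene through homologous recombination, and the mIAPP mice were their wild-type littermates, all on a C57BL/6NHsd background and 10 weeks old, of both sexes. Isolated islets recovered overnight at 11.1 mM glucose and were then kept for 48 h at 11.1 mM, the condition described here, or at 16.7 mM, which serves below as the other condition of the series. Each of 8 sets held 1 library of each of the 4 groups. The labels give neither the number and sex of the animals behind a library, nor whether hIAPP mice carried 1 or 2 copies of the human gene, nor the strain of the cells in which the gene was targeted. The p-values for genes therefore measure the spread between libraries that remains after group and set are fitted, pooled over all 4 groups. They do so whatever number of animals stands behind a library.

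Islet amyloid polypeptide, also called amylin, is a peptide hormone that beta cells store in the insulin granule and release together with insulin. The human peptide aggregates into the amyloid seen in islets in type 2 diabetes, whereas mouse IAPP does not, because of differences in its amyloid-forming stretch. Higher glucose raises the production of IAPP in beta cells, and culture at high glucose is used to let amyloid form in hIAPP islets within days. The 11.1 mM comparison asks which genotype differences are present at the lower of the 2 glucose levels.

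The deposited values are estimated reads per gene. Their sum per library, in units of 1e6 reads, ran from 18.8 to 34.8 (median 25.9) in hIAPP islets and from 16.1 to 29.1 (median 25.4) in mIAPP islets. The insulin genes Ins1 and Ins2 took 17.3 to 23.4% of the counts in hIAPP islets and 15.1 to 29.9% in mIAPP islets. The mitochondrially encoded genes took 5.23 to 27.2% (median 18.1%) and 3.49 to 34.7% (median 20.4%), so that libraries of 1 genotype differed more from each other than the 2 medians did. Over the 8 sets the hIAPP minus mIAPP difference was -1.64 percentage points for the mitochondrial share (exact paired sign-flip permutation test, two-sided, p = 0.539) and 0.0802 points for the insulin share (p = 0.969, same exact test). Both had an adjusted p of 0.969 over the 17 library measures compared, and none of the 17 passed. The Y-linked genes (Ddx3y, Eif2s3y, Kdm5d and Uty) summed to 9.90 to 156 counts per 1e6 (CPM) in hIAPP and 9.05 to 171 CPM in mIAPP libraries. In set 5 the sum was 156 CPM in the hIAPP and 35.9 CPM in the mIAPP library, a wider gap than within any other set, and sets 2, 4 and 8 had low sums in both genotypes, so the mix of sexes differed between sets. In bulk islets fewer cells of a type and less RNA per cell cannot be told apart.

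Few genes differed between the genotypes at 11.1 mM glucose. Of 16428 genes tested with edgeR's quasi-likelihood test, 21 (0.128%) had a Benjamini-Hochberg adjusted p under 0.05. They were Iapp itself, 7 genes within 20 Mb of it on chromosome 6, and 13 genes on other chromosomes. The hIAPP islets were higher for 18 genes (0.11% of those tested) and lower for 3 (0.0183%). An unadjusted p under 0.05 was reached by 1121 genes (6.82%). DESeq2 called 38 genes, all 21 among them, and a fit of the libraries with under 10% mitochondrial counts called 10. The levels of the 8 hIAPP and 8 mIAPP libraries did not overlap for 15 genes (0.0913%), 14 of which were among the 21. The exception was Zfp768, a zinc finger gene on chromosome 7, at 9.58 to 11.2 CPM in hIAPP and 11.6 to 16.7 CPM in mIAPP islets (log2 fold change -0.34, adjusted p = 0.151, and 0.0145 with DESeq2, which called it); it was chosen for mention after its values were seen. The median standard error (SE) of a log2 fold change was 0.14. For 14184 genes (86.3%) the 95% confidence interval lay within 1 log2 unit of 0, and the smallest change that passed was 0.72.

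Levels are given as CPM scaled by the trimmed mean of M-values (TMM), as lowest, median and highest of the 8 libraries, and fold changes are hIAPP against mIAPP on the log2 scale with their SE from the fit of all 32 libraries. Iapp (ENSMUSG00000041681) lies on the plus strand of chromosome 6 at 142298423 to 142303961 (GRCm38). The coding sequence of this mouse transcript is shown because the Iapp counts of both genotypes stand under the mouse gene's identifier. It is read from the GENCODE M21 transcript, with the start and stop codons in capitals:
Iapp: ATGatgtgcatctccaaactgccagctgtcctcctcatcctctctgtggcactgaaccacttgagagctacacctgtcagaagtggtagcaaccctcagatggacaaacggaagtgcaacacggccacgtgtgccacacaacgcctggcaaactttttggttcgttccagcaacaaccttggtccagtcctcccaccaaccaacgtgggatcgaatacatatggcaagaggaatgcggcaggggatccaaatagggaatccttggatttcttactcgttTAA
None of the 944 different 31-base words in the mouse Iapp transcripts occurs, on either strand, in a transcript of another mouse gene. Such words are what kallisto, the program the authors used, matches reads by (at its default setting). Whether the human sequence stood in the authors' reference is not given in the sources used here, so the share of Iapp counts in hIAPP islets that came from the human gene is not known.

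Iapp counts were lower in hIAPP islets. Its level was 5647 to 7912 CPM (median 6678) in hIAPP and 8645 to 15614 CPM (median 11685) in mIAPP islets. Every hIAPP library lay below every mIAPP library, as the plot of levels by library shows. The log2 fold change was -0.83 ± 0.11 (SE, n = 8 sets, adjusted p = 4.24e-05), a ratio of 0.563 (95% confidence interval 0.484 to 0.656). Within sets the log2 difference ran from -1.26 in set 5 to -0.34 in set 8 and was negative in all 8. In a fit of only the libraries with under 10% mitochondrial counts, which keeps 2 hIAPP and 3 mIAPP libraries at 11.1 mM, the value was -0.998 and did not pass (adjusted p = 0.0865).

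**Figure D1:**
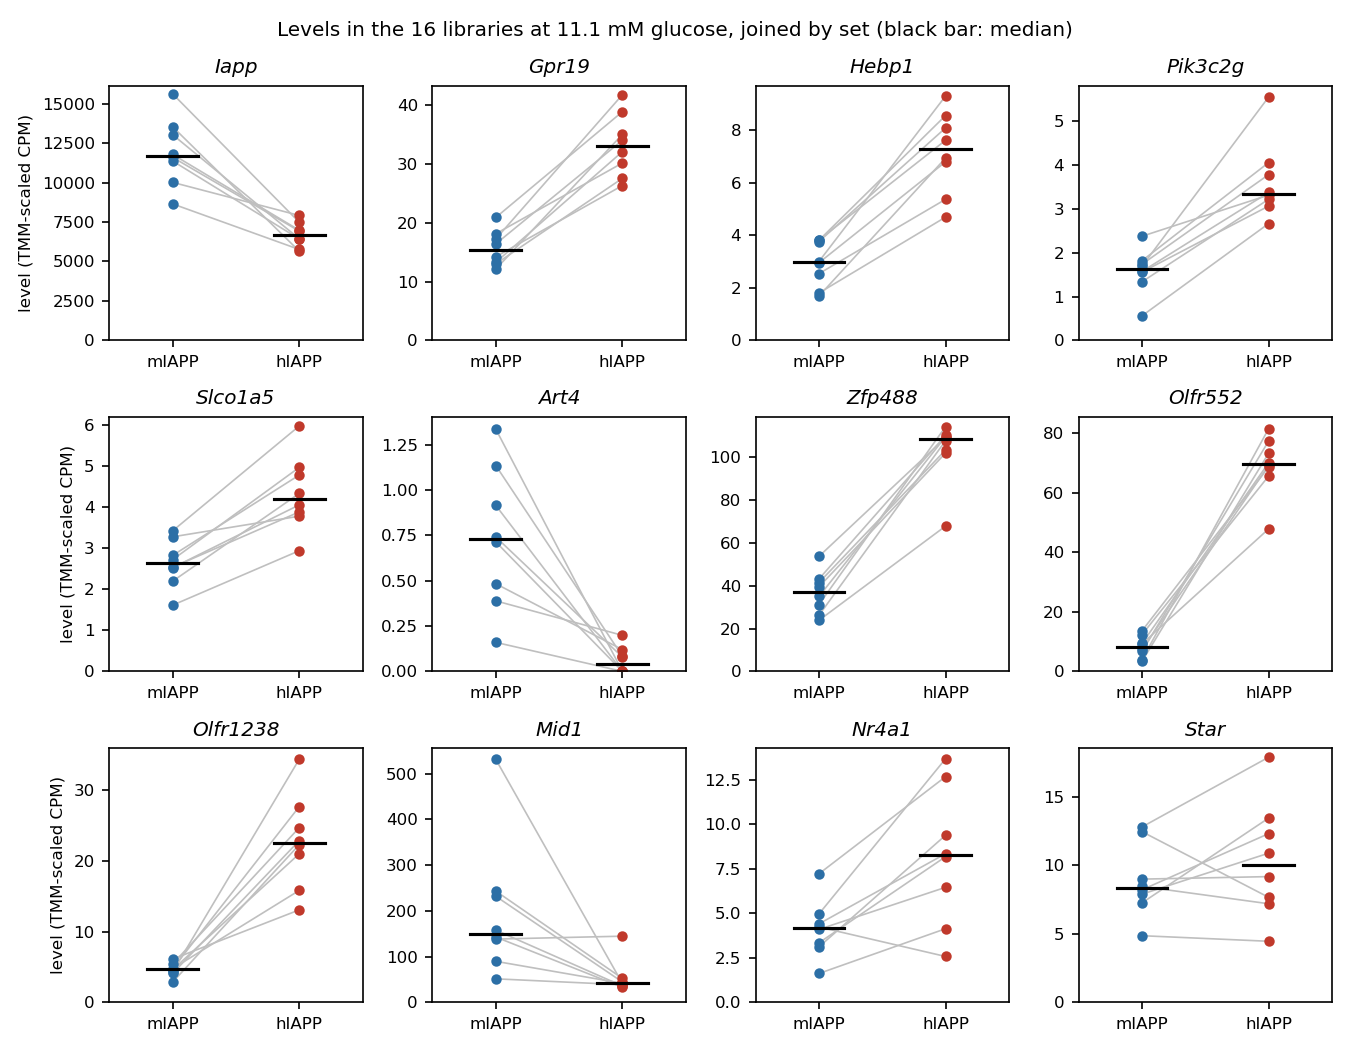
Level of 12 genes in TMM-scaled CPM (vertical axis, linear, from 0) in the 8 mIAPP (blue) and 8 hIAPP (red) libraries at 11.1 mM glucose; grey lines join the libraries of a set and the black bar is the median. For Iapp, Gpr19, Hebp1, Pik3c2g, Zfp488, Olfr552 and Olfr1238 the genotypes do not overlap, whereas Star overlaps throughout, at 4.46 to 17.9 against 4.87 to 12.8 CPM.

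The genes called around Iapp, apart from 1 that spans it, lay on its side of lower coordinates. Within 20 Mb of Iapp 198 other genes were tested and 7 passed (3.54%), against 13 of 15404 (0.0844%) on other chromosomes and 0 of 603 on the rest of chromosome 6. An unadjusted p under 0.05 was reached by 27 of the 198 (13.6%) and by 30 of the 603 (4.98%). On the side of lower coordinates 6 of 149 passed, the farthest 7.4 Mb away, and 26 of the 149 had an unadjusted p under 0.05. Slco1a5, whose span covers Iapp, also passed. On the side of higher coordinates, where the tested genes end 7.1 Mb from Iapp, 0 of 48 passed in edgeR's quasi-likelihood test and 0 had an unadjusted p under 0.05, and neither DESeq2 nor limma voom called any there. By distance, 2 of 48 genes (4.17%) passed within 5 Mb, 5 of 47 (10.6%) from 5 to 10 Mb and 0 of 103 from 10 to 20 Mb. The window was known to hold called genes when it was chosen, so these shares are a description.

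**Figure D2:**
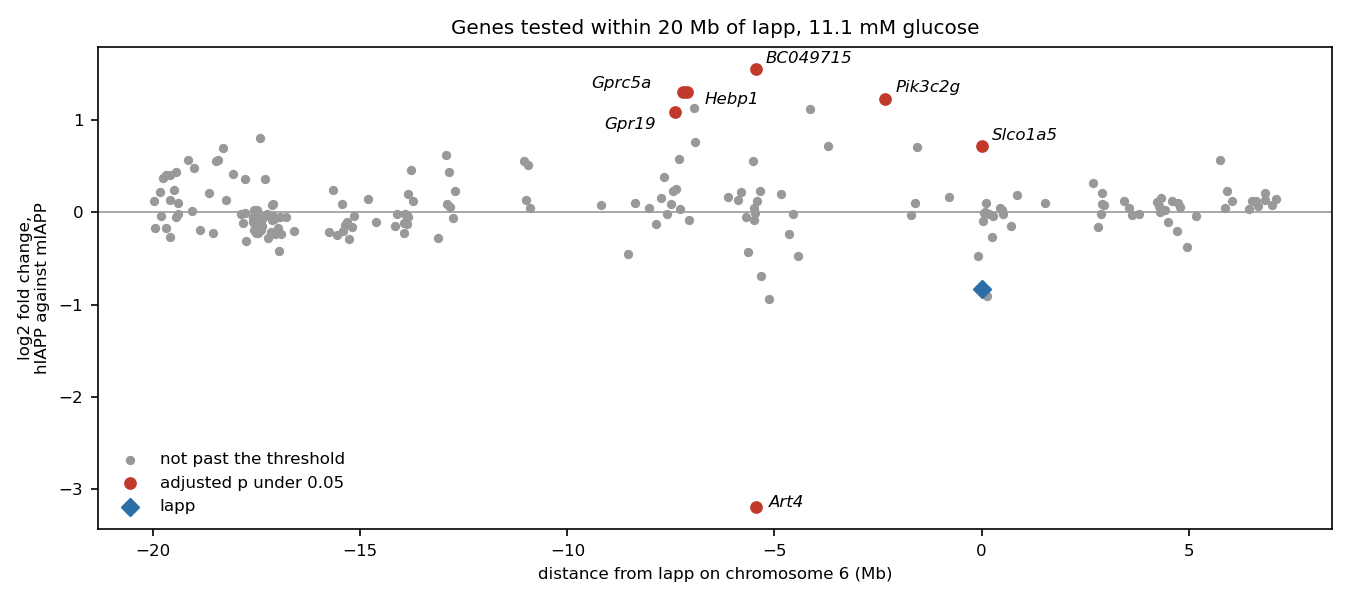
Log2 fold change, hIAPP against mIAPP at 11.1 mM glucose (vertical axis), of the 198 genes tested within 20 Mb of Iapp on chromosome 6, against distance from Iapp in Mb (horizontal axis, negative towards lower coordinates). Red points passed an adjusted p of 0.05 and grey points did not; the 6 red points apart from Slco1a5 lie between -7.4 and -2.33 Mb, and none lies above 0 Mb.

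Slco1a5, which encodes an organic anion transporter of the OATP family, runs from 142234227 to 142322981 on the minus strand, so that Iapp lies inside it on the opposite strand. The exons of the 2 genes share 0 bases in the annotation. Its level was 2.94 to 5.97 CPM (median 4.19) in hIAPP and 1.61 to 3.42 CPM (median 2.63) in mIAPP islets. The genotypes overlapped, but hIAPP was the higher library in 8 of 8 sets, and Slco1a5 rose by 0.72 ± 0.13 (adjusted p = 0.00994). At 16.7 mM glucose the difference was -0.11 ± 0.12 (adjusted p = 0.548), and the genotype by glucose interaction passed (0.83, adjusted p = 0.00915). The call at 11.1 mM was lost without the set as a block (0.71), in a fit of the 16 libraries alone (0.71) and without set 1, 2, 3 or 8 (0.72, 0.70, 0.70 and 0.71). Slco1a5 shares 359 of its 3747 31-base words with other genes, 162 of them with the neighbour Slco1a6, a paralog 0.0899 Mb from Iapp. Slco1a6 was at 15.3 to 28.7 CPM in hIAPP and 23.3 to 43.5 CPM in mIAPP islets, lower in 8 of 8 sets without passing (-0.47 ± 0.10, adjusted p = 0.071). DESeq2 called Slco1a6 (-0.48, adjusted p = 0.00560), as did edgeR with upper-quartile scaling (adjusted p = 0.042), without set 3 (adjusted p = 0.0476) and without the mIAPP library of set 5 (adjusted p = 0.0225). The libraries were made with a strand-specific kit, and whether strand was used in the authors' counting is not given in the sources used here.

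Pik3c2g encodes a class II phosphoinositide 3-kinase and lies 2.33 Mb from Iapp at 139587221 to 139969284. It was at 2.66 to 5.55 CPM (median 3.34) in hIAPP and 0.561 to 2.37 CPM (median 1.63) in mIAPP islets. No library of one genotype reached the range of the other, and Pik3c2g rose by 1.23 ± 0.22 (adjusted p = 0.00764), at 1.14 and 1.23 without passing when set 3 or set 4 was left out and at 1.23 in a fit of the 16 libraries alone. None of its 12660 31-base words occurs in another gene.

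About 5.4 Mb from Iapp, a pair of neighbouring genes moved in opposite directions. Art4, which encodes an ADP-ribosyltransferase that carries the Dombrock blood group, spans 136848451 to 136857733. It had 16 counts in the 8 hIAPP libraries together and 131 in the 8 mIAPP libraries, a mean of 0.0602 against 0.735 CPM. The hIAPP libraries averaged under 3 counts, so no fold is given, and Art4 fell with an adjusted p of 0.00994, lower in 8 of 8 sets. That call was lost without set 1, 2 or 8, with an adjusted p of 0.107, 0.0638 and 0.0505. BC049715, a protein-coding gene without a characterised product, spans 136827626 to 136840662. It was at 1.49 to 4.00 CPM (median 2.24) in hIAPP and 0.297 to 1.24 CPM (median 0.922) in mIAPP islets, ranges that did not touch, and rose by 1.55 ± 0.21 (adjusted p = 0.000104). Its exons overlap those of Smco3 on the opposite strand over 2202 bases, with which it shares 2174 of its 6508 31-base words, so without strand in the counting the reads of BC049715 and Smco3 in that shared part cannot be told apart. Smco3 was not among the genes tested.

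A cluster of 3 called genes lies about 7 Mb from Iapp. Gpr19, an orphan G protein-coupled receptor (134869093 to 134898578), was at 26.4 to 41.8 CPM (median 33.1) in hIAPP and 12.1 to 20.9 CPM (median 15.3) in mIAPP islets. The genotypes did not overlap, and Gpr19 rose by 1.09 ± 0.09 (adjusted p = 1.28e-08), with within-set differences of 0.72 to 1.49. Hebp1, a heme-binding protein (135137522 to 135198022), was at 4.69 to 9.30 CPM (median 7.28) against 1.69 to 3.82 CPM (median 2.98), likewise without overlap, and rose by 1.30 ± 0.14 (adjusted p = 2.52e-06). Between them lies Gprc5a, a receptor gene induced by retinoic acid (135065651 to 135084709). It was at 0.437 to 2.22 CPM against 0.191 to 1.29 CPM, overlapping and higher in 7 of 8 sets, and rose by 1.30 ± 0.26 (adjusted p = 0.0252). Its call was lost without set 1, 2, 4, 6, 7 or 8 (1.13 to 1.32) with the Y-linked level as a covariate (1.26), without the set as a block (1.30) and in a fit of the 16 libraries alone (1.30). Apold1, an endothelial early response gene between Gpr19 and Gprc5a, was at 10.7 to 17.8 against 6.33 to 14.2 CPM, higher in 8 of 8 sets without passing (0.58 ± 0.12, adjusted p = 0.0512), and DESeq2 and limma voom both called it (0.57 and 0.59).

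Of the tested neighbours next by p, Dera, Mgst1 and Emp1 did not pass either. Dera, a deoxyribose-phosphate aldolase 4.44 Mb from Iapp, was at 5.67 to 7.33 CPM in hIAPP and 4.97 to 12 CPM in mIAPP islets and lower in 7 of 8 sets (-0.48 ± 0.11, adjusted p = 0.0787). Without set 7 it passed, at -0.58 (adjusted p = 0.00253). Mgst1, a microsomal glutathione transferase 4.14 Mb away, was at 1.15 to 3.77 against 0.286 to 1.75 CPM and higher in 8 of 8 sets (1.12 ± 0.26, adjusted p = 0.125). Emp1, an epithelial membrane protein 6.92 Mb away, was at 8.96 to 35.6 against 6.21 to 28.5 CPM (0.76 ± 0.24, adjusted p = 0.664). DESeq2 and limma voom called Dera (-0.50 in both) and Mgst1 (1.10 and 1.09), and neither called Emp1.

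Away from chromosome 6 a group of called genes shared transcript sequence. Of the 13 genes, 6 (Zfp488, Olfr552, Olfr1238, Olfr477, Nudcd1 and Gm13722), on chromosomes 14, 7, 2, 7, 15 and 2, hold at least 1 of 52 words of 31 bases that are present in 5 of the 13 at a time. In the 5 of them that are protein-coding, this stretch lies outside the coding part, towards the end of the transcript. In Zfp488 it falls between bases 3229 and 3447 of a 4301-base transcript whose coding part ends at base 1180. The following 30 bases of it are shown because they stand in the transcripts of Zfp488, Olfr552, Olfr1238, Nudcd1 and Gm13722 alike:
shared stretch: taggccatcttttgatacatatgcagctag
It is written as it stands in Zfp488 and Nudcd1, and the transcripts of Olfr552, Olfr1238 and Gm13722 hold its reverse complement. Words are counted here on both strands, so that reads of 1 orientation would tell these 2 sets of genes apart only where strand was used in counting. Words of this stretch are not limited to the called genes. They occur in 145 of the genes tested (0.883%), of which 6 (4.14%) passed, all higher in hIAPP islets. The words were picked because called genes hold them, so this share follows from the choice and is a description only. The other 139 had a median log2 fold change of 0.07 and ran from -1.83 to 0.77, with 89 above 0 and 9 at an unadjusted p under 0.05. Reads that lie wholly in such words cannot be assigned to 1 gene with certainty, and their part in these counts was not tested. Hsd3b2, a steroid dehydrogenase gene that shares 378 words with Gm13722 and 285 with Olfr552, was at -0.77 (adjusted p = 0.138); it was chosen for mention after its values were seen.

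Zfp488, a zinc finger repressor of the oligodendrocyte lineage (chromosome 14, 33967070 to 33978764), was at 67.9 to 114 CPM (median 109) in hIAPP and 23.9 to 53.8 CPM (median 37.3) in mIAPP islets. It rose by 1.51 ± 0.11 (adjusted p = 6.25e-10) with no overlap. It shares 777 of its 4258 words with other genes, 308 of them with Olfr552. Olfr552, an olfactory receptor gene (chromosome 7, 102597770 to 102608125), was at 47.8 to 81.5 CPM (median 69.6) against 3.43 to 13.6 CPM (median 8.31). It rose by 3.16 ± 0.22 (adjusted p = 4.12e-10), the genotypes lying far apart in every set. Olfr1238, of the same family (chromosome 2, 89401991 to 89409676), was at 13.1 to 34.3 CPM (median 22.6) against 2.87 to 6.11 CPM (median 4.68) and rose by 2.30 ± 0.15 (adjusted p = 9.32e-11). Nudcd1, a gene of the NudC domain family (chromosome 15, 44373163 to 44428307), was at 50.2 to 75.3 CPM (median 66.6) against 25.5 to 44 CPM (median 33.7) and rose by 1.00 ± 0.08 (adjusted p = 9.13e-09). None of these 4 genes overlapped between the genotypes.

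The processed pseudogene Gm13722 (chromosome 2, 86090336 to 86093401) was at 42.9 to 110 CPM (median 102) in hIAPP and 22.5 to 54.7 CPM (median 38.4) in mIAPP islets. It rose by 1.32 ± 0.11 (adjusted p = 1.88e-08) in 8 of 8 sets, and its ranges met only through the hIAPP library of set 7, the next lowest standing at 94.1 CPM. The same hIAPP library of set 7 was the lowest of its group for Zfp488, Olfr552 and Nudcd1 too, and it had the highest mitochondrial share of the hIAPP libraries, 27.2%. Without set 7 the log2 fold changes were 1.36 for Gm13722, 1.51 for Zfp488, 3.24 for Olfr552 and 1.06 for Nudcd1, all 4 still called. Olfr477 (chromosome 7, 107986693 to 107992723) was at 4.53 to 9.55 CPM against 1.09 to 3.91 CPM and rose by 1.53 ± 0.19 (adjusted p = 2.60e-05). The 6 genes were called in each of the 23 alternative fits.

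Of the olfactory receptor genes 260 were tested and 3 passed (1.15%), all higher, with a median log2 fold change of 0.08 over the family. Of the vomeronasal receptor genes 134 were tested and 1 passed (0.746%), with a median of 0.17. That one was Vmn1r213 (chromosome 13, 23007656 to 23014482), at 7.29 to 21.7 CPM (median 13.3) against 2.86 to 3.91 CPM (median 3.58). It rose by 2.00 ± 0.15 (adjusted p = 1.26e-09) without overlap. It holds none of the 52 words. It shares 602 of its 5997 words with other genes, the most with Vmn1r219, which was not tested. Called genes among them are Gm13722 (15 words), Olfr477 (15), Zfp488 (4) and Olfr1238 (2). In all, 8 of the 13 called genes on other chromosomes share a word with another of the 13. Both receptor families are known from sensory neurons of the nose.

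A pair of called genes resembles widely expressed relatives. Cks1brt, a retrogene of the cell cycle gene Cks1b (chromosome 8, 85151924 to 85173622), was at 2.56 to 5.40 CPM (median 3.59) in hIAPP and 0.0801 to 1.15 CPM (median 0.242) in mIAPP islets. It rose by 3.79 ± 0.36 (adjusted p = 8.91e-08) without overlap. It shares 158 of its 2367 words with Cks1b, which itself was at -0.06 (adjusted p = 0.92). Hist1h2aa, a histone H2A gene known from testis (chromosome 13, 23934462 to 23934851), had 549 counts in the 8 hIAPP libraries and 2 in the 8 mIAPP libraries. The ratio of the scaled totals was 255, with an exact 95% counting interval of 70.2 to 2110 that covers counting error only. Its level was 0.869 to 5.51 CPM in hIAPP islets and 0 to 0.0401 CPM in mIAPP islets, and it was higher in 8 of 8 sets (adjusted p = 9.32e-11). Hist1h2aa was 1 of 40 histone genes tested, the other 39 of which did not pass. It shares 102 of its 360 words with other genes, the most with ENSMUSG00000105874 (99 words), which was not tested.

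Pseudogenes made up 3 of the 21 genes. Besides Gm13722 they were Gm7291 and Gm47632. Gm7291 (chromosome 5, 143157161 to 143157542) had 207 counts in hIAPP and 11 in mIAPP libraries, a mean of 1.13 against 0.0625 CPM, and was higher in 8 of 8 sets (adjusted p = 0.00255). It shares 103 of its 352 words with other genes, the most with ENSMUSG00000104836 (96 words), which was not tested. With H2afj, a histone gene 5.49 Mb from Iapp on chromosome 6, it shares 40, and H2afj was at -0.08 (adjusted p = 0.932). Gm47632 (chromosome 10, 100317024 to 100320270) was at 4.32 to 12.1 against 1.33 to 11.3 CPM, overlapping, and rose by 1.07 ± 0.22 (adjusted p = 0.0452). It passed in 6 of 22 alternative fits, and 2265 of its 3217 words are shared with other genes.

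Mid1, an X-linked gene for a microtubule-associated ubiquitin ligase that lies across the edge of the pseudoautosomal region in this species, was the third gene lower in hIAPP islets. It spans 169685199 to 170005736 on chromosome X. Its level was 33.1 to 145 CPM (median 41.5) in hIAPP and 51.6 to 531 CPM (median 150) in mIAPP islets. The genotypes overlapped. The hIAPP library of set 1 was far above the other 7 of its group (next highest 52.4 CPM, in set 5), and the mIAPP library of set 8 was far above its own (next highest 243 CPM). Mid1 fell, with a log2 fold change of -1.80 ± 0.31 (adjusted p = 0.00656), lower in 7 of 8 sets, with within-set differences from -3.67 in set 8 to 0.06 in set 1. The call was lost without set 2, 3, 4 or 5 (-1.70, -1.75, -1.75 and -1.72) and in a fit of the 16 libraries alone (-1.76), and kept without set 8 (-1.51) and with the Y-linked level as a covariate (-1.67). Mid1 shares 1091 of its 6689 words with Mid1-ps1, a copy on the Y chromosome, which was at 0.29 (adjusted p = 0.915).

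Nr4a1, an orphan nuclear receptor of the immediate early genes, which stimulation induces within minutes to hours, was the 1 called gene of a list of 27. It was at 2.58 to 13.7 CPM (median 8.26) in hIAPP and 1.62 to 7.22 CPM (median 4.17) in mIAPP islets. The genotypes overlapped, and hIAPP was the higher library in all sets but set 3. Nr4a1 rose by 0.95 ± 0.19 (adjusted p = 0.0306). Leaving out any 1 set apart from set 3 ended the call (0.86 to 0.99), as did limma voom (0.88), dropping the set as a block (0.97) and a fit of the 16 libraries alone (0.92). At 16.7 mM, where its level was higher in both genotypes, it was at -0.16 ± 0.17, and the interaction passed (1.11, adjusted p = 0.0148). Of the 27 immediate early genes 20 had a log2 fold change above 0 and 4 an unadjusted p under 0.05 (the median was 0.10, against 0.00 over all genes tested). Next to Nr4a1 stood Dusp1, a MAP kinase phosphatase (0.55 ± 0.14, adjusted p = 0.312), and Fos, a subunit of AP-1 (0.92 ± 0.26, adjusted p = 0.494). For Fos both genotypes were highest in set 4, at 36.4 CPM in hIAPP and 18.4 CPM in mIAPP islets. Dusp1 had an interaction that passed (-0.71, adjusted p = 0.047), its rise at 16.7 mM being 1.26 ± 0.14.

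Star encodes the steroidogenic acute regulatory protein, which delivers cholesterol to the inner mitochondrial membrane, and the series title names it. At 11.1 mM it was at 4.46 to 17.9 CPM (median 10.0) in hIAPP and 4.87 to 12.8 CPM (median 8.35) in mIAPP islets. The ranges overlapped almost fully, and hIAPP was the higher library in 5 of 8 sets. The log2 fold change of 0.19 ± 0.19 (adjusted p = 0.826) had a 95% confidence interval of -0.19 to 0.58, which leaves out the 2.94 ± 0.19 of the same contrast at 16.7 mM, and the interaction was -2.75 (adjusted p = 1.35e-06). Within sets the difference ran from -0.67 in set 5 to 0.85 in set 1, against 2.23 to 3.71 at 16.7 mM. Of the 19 tested genes of sterol transport and steroidogenesis 0 passed in edgeR's test (1 at an unadjusted p under 0.05), with a median of 0.02. The smallest p of the list was that of Stard3, a late endosomal cholesterol transporter (-0.21 ± 0.09, adjusted p = 0.722).

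The gene lists for beta cell function and stress held no called member at 11.1 mM apart from Iapp and Nr4a1, so that 14 of the 16 lists had 0, where 0.128% of all genes passed. DESeq2 and limma voom called no further member of any list. Their medians ran from -0.05 to 0.14. Of 22 islet hormone and granule genes only Iapp passed, and of the rest Ghrl, the ghrelin gene (-0.57 ± 0.31), and Pcsk1n, which encodes the convertase inhibitor proSAAS (-0.25 ± 0.15), came next (adjusted p = 0.738 and 0.743). Of 27 genes of beta cell identity and secretion, 0 passed and 0 had an unadjusted p under 0.05, with a median of -0.01. Of 16 genes that beta cells normally keep silent or that mark dedifferentiation, such as Neurog3 (-0.29 ± 0.27, adjusted p = 0.819), likewise 0 passed and 0 were at an unadjusted p under 0.05.

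For the ER stress and unfolded protein response genes 0 of 27 passed and 0 had an unadjusted p under 0.05, with a median of 0.05. Dnajb9, an ER chaperone partner, was at 90.4 to 247 CPM in hIAPP and 71.6 to 258 CPM in mIAPP islets (0.30 ± 0.16, adjusted p = 0.739). For the NF-kB, chemokine and inflammasome genes 0 of 31 passed, 2 were higher and 2 lower at an unadjusted p under 0.05, and the median was 0.07. Il6, a cytokine gene, was at 0.264 to 0.664 CPM in hIAPP and 0 to 0.487 CPM in mIAPP islets, higher in 8 of 8 sets without passing (1.53 ± 0.48, adjusted p = 0.637). The NF-kB subunits Rela (-0.26 ± 0.09, adjusted p = 0.722) and Relb (-0.39 ± 0.15, adjusted p = 0.722) were lower in 7 of 8 sets each, also without passing. At 16.7 mM, where 9.27% of all genes rose, 17 of the same 31 did, with a median of 1.05, and 7 of the 31 passed in the interaction, where 3.12% of all genes did.

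Cholesterol biosynthesis showed the same contrast between the glucose levels. At 11.1 mM 0 of its 25 genes passed, 2 were lower at an unadjusted p under 0.05 and the median was 0.00. Scap, the sterol sensor that escorts SREBP proteins, was at -0.22 ± 0.08 (adjusted p = 0.722) and Cyp51, a sterol demethylase, at 0.17 ± 0.09 (adjusted p = 0.738). At 16.7 mM 18 of the 25 rose (9.27% of all genes did), with a median of 0.59, and 6 passed in the interaction (3.12% of all genes did). Among 19 ChREBP and lipogenic genes the smallest p was that of Fasn, the fatty acid synthase (-0.23 ± 0.08, adjusted p = 0.722). Among glycolysis genes, 21 identifiers for 20 symbols, 3 were higher at an unadjusted p under 0.05, among them Hk2, a hexokinase (0.49 ± 0.21), and Pgam1, a phosphoglycerate mutase (0.19 ± 0.08), both with an adjusted p of 0.722.

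Among the oxidative stress genes Prdx1, a peroxiredoxin, was at 109 to 147 CPM in hIAPP and 106 to 132 CPM in mIAPP islets, higher in 8 of 8 sets without passing (0.19 ± 0.06, adjusted p = 0.722). Phlda3, a p53 target, was lower in 7 of 8 sets without passing (-0.45 ± 0.20, adjusted p = 0.722). Over the 21 apoptosis and p53 genes 0 passed, 1 was higher and 1 lower at an unadjusted p under 0.05, and the median was -0.03. The remaining lists held 0 called genes of 20 for amyloid clearance and matrix (median 0.02), 22 for the interferon response (median 0.00), 23 for proliferation (median 0.14) and 13 encoded in the mitochondrion (median -0.05). Of these mitochondrial genes mt-Nd4l was at -0.14 with a wide SE of 0.32. Its 95% confidence interval ran from -0.81 to 0.53. The median of the list at 16.7 mM was -1.28, and 0 of the 13 genes passed in the interaction (3.12% of all genes did).

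**Figure D3:**
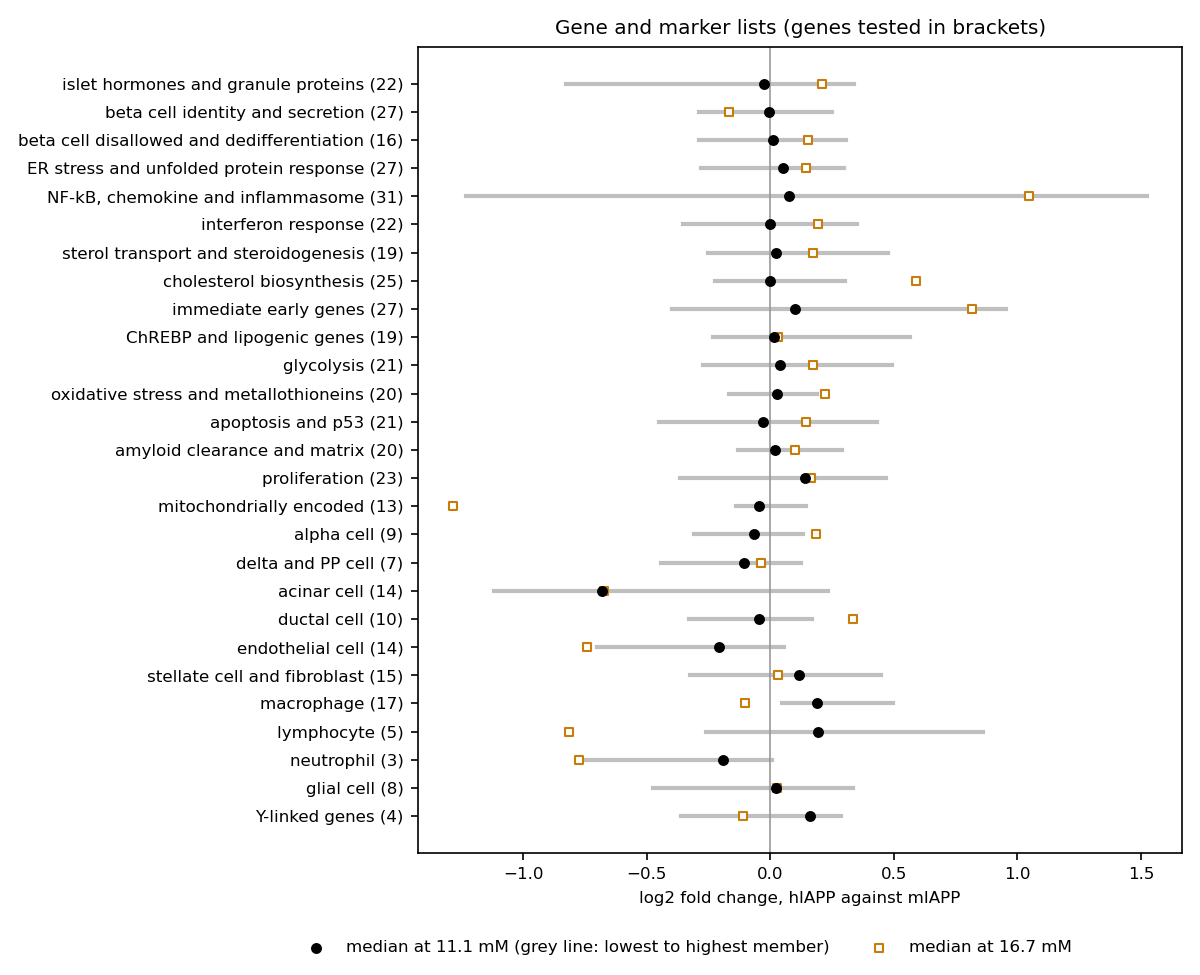
Median log2 fold change, hIAPP against mIAPP, of 16 gene lists and 11 marker lists (horizontal axis) at 11.1 mM (black points, with the lowest to highest member as a grey line) and at 16.7 mM (open squares); the number of genes tested is in brackets. The gene lists lie between -0.05 and 0.14 at 11.1 mM and between -1.28 and 1.05 at 16.7 mM, and the acinar markers have the lowest median at 11.1 mM, -0.68.

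Markers of other cell types did not pass in any of the 11 lists, and some leaned to 1 side. All 17 macrophage markers had a log2 fold change above 0, with a median of 0.19 and a range of 0.05 to 0.50, and the smallest p was that of Itgam (0.50 ± 0.24, adjusted p = 0.731). Their summed level was 342 to 602 CPM in hIAPP and 278 to 528 CPM in mIAPP islets, higher in 5 of 8 sets (exact paired permutation test, p = 0.18, adjusted p = 0.969). Of 14 acinar markers tested 13 were below 0, with a median of -0.68, while their summed level was higher in 4 sets and lower in 4 (51.3 to 346 against 83.1 to 295 CPM, exact paired permutation p = 0.5). Of 14 endothelial markers 13 were below 0 with a median of -0.21, led by Cldn5 (-0.70 ± 0.28, adjusted p = 0.722), and their sum was 101 to 274 against 94.1 to 278 CPM. At 16.7 mM, where 11.2% of all genes fell, 9 of the 14 endothelial markers did. In the interaction 0 of the 14 passed, where 3.12% of all genes did. Members of a list share their cells, so these counts are no set of independent measurements. Alpha cell markers (9 tested, median -0.07), delta and PP cell markers (7, median -0.11), ductal markers (10, median -0.05), stellate and fibroblast markers (15, median 0.12) and glial markers (8, median 0.02) held 0 called genes. Of the lymphocyte and neutrophil markers 5 of 10 and 3 of 7 were tested. Their sums were 4.87 to 13.4 and 3.87 to 12.7 CPM in the mIAPP libraries and within those ranges in the hIAPP libraries.

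Most of the genes called at 11.1 mM differed in the same way at 16.7 mM, in separate libraries of the same sets. Of the 21 genes 19 passed there in the same direction (20.5% of all genes passed at 16.7 mM), the exceptions being Slco1a5 and Nr4a1. For 6 of the 21 the interaction passed, where 3.12% of all genes did: Slco1a5 and Nr4a1, with a larger value at 11.1 mM, and Olfr1238, Olfr552, Vmn1r213 and Gprc5a, with a larger one at 16.7 mM. Olfr1238 was at 3.09 ± 0.15 at 16.7 mM, with all hIAPP libraries between 43.5 and 48.9 CPM, so that the wide spread of the hIAPP libraries at 11.1 mM, 13.1 to 34.3 CPM, was absent there. Olfr552 was at 4.20 ± 0.23 (interaction -1.05, adjusted p = 0.0438), Vmn1r213 at 2.88 ± 0.15 (interaction -0.88, adjusted p = 0.0154) and Gprc5a at 2.63 ± 0.24 (interaction -1.33, adjusted p = 0.0332). For Iapp (-1.14 ± 0.11), Mid1 (-1.90 ± 0.31), Gpr19 (0.91 ± 0.09), Hebp1 (1.16 ± 0.15) and Nudcd1 (1.18 ± 0.08) the interaction did not pass, with an adjusted p of 0.269, 0.926, 0.492, 0.752 and 0.434.

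**Figure D4:**
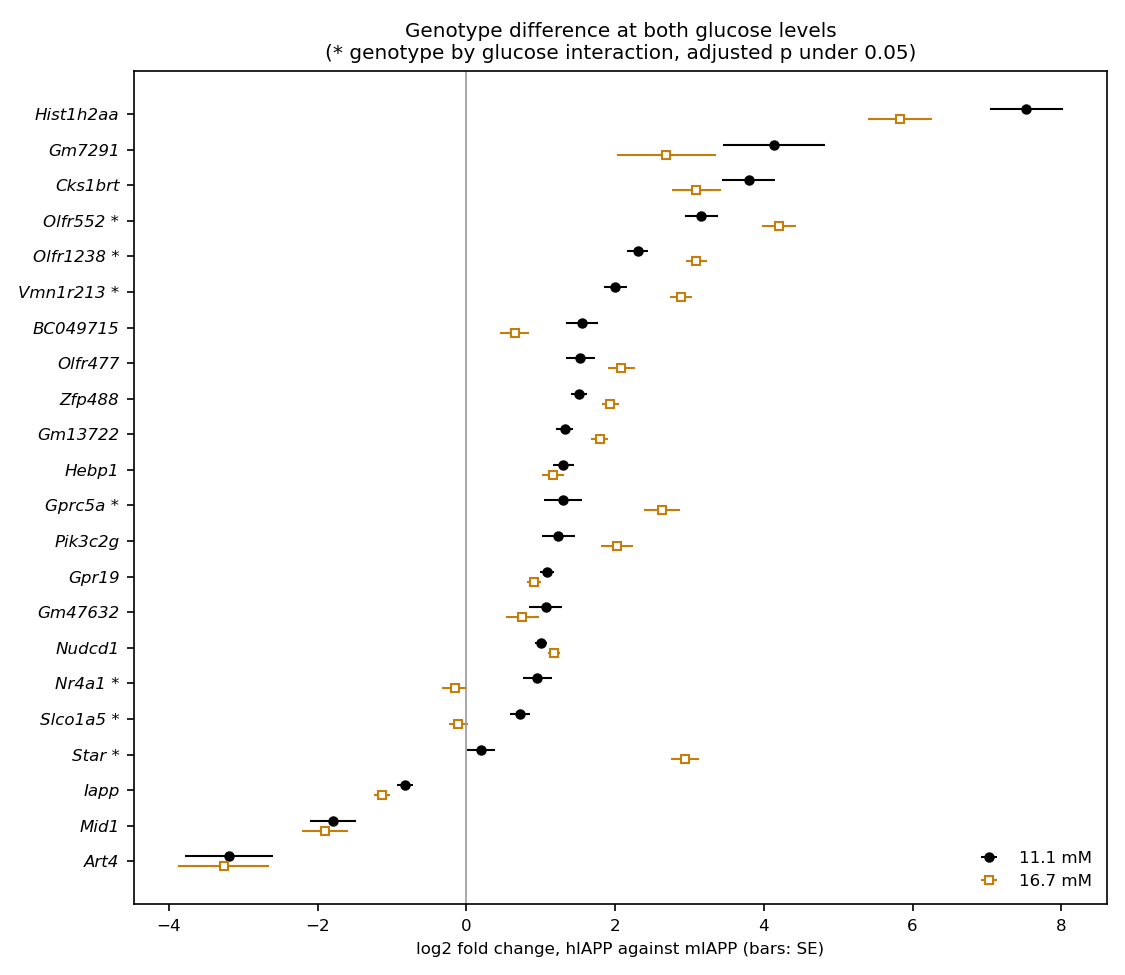
Log2 fold change, hIAPP against mIAPP (horizontal axis, bars are the SE), of the 21 genes called at 11.1 mM and of Star, at 11.1 mM (black) and 16.7 mM (open orange squares). Stars mark genes whose interaction passed; Star moves from 0.19 to 2.94, Slco1a5 from 0.72 to -0.11 and Nr4a1 from 0.95 to -0.16, and the fitted values of Hist1h2aa, Gm7291 and Art4 rest on a group near 0 counts.

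Of all genes 3371 passed at 16.7 mM (5942, or 36.2%, had an unadjusted p under 0.05), with 1848 (11.2%) lower in hIAPP islets, and 19 of the 3371 passed at 11.1 mM. With the mitochondrial level as a covariate 752 genes passed at 16.7 mM and 23 at 11.1 mM. For the 3371 genes the median absolute log2 fold change was 0.54 at 16.7 mM and 0.12 at 11.1 mM. They were picked by their p at 16.7 mM, so a larger size there follows in part from the choice. Of these 3371, 2294 (68.1%) had the same sign at both levels, and genes of 1 library are not independent. For 2792 of the 3371 the 95% confidence interval at 11.1 mM left out the value at 16.7 mM, taken as if without error. The interaction, which counts the error at both levels, passed for 501. Of all 513 genes in the interaction 502 differed more at 16.7 mM, and 357 (2.17% of all genes) had the lower value at 11.1 mM. The 5 genes with the largest rises at 16.7 mM under the rule for named genes were Hist1h2aa, which also rose at 11.1 mM as given above, and Cxcl1, S100a9, Sprr1a and Rdh16f1, which did not pass at 11.1 mM. Cxcl1, a neutrophil chemokine, was at 0 to 0.252 CPM in hIAPP and 0 to 0.434 CPM in mIAPP islets, and the alarmin S100a9 at 0 to 0.124 and 0 to 0.25 CPM. Sprr1a, an epithelial stress protein, was at 0.36 to 3.15 against 0.259 to 2.32 CPM (0.29 ± 0.61, adjusted p = 0.926). Rdh16f1, a retinol dehydrogenase paralog, was at 0 in all 8 hIAPP and in 7 mIAPP libraries, and at 1.01 CPM in the mIAPP library of set 8. For the 5 genes with the largest falls at 16.7 mM the difference at 11.1 mM was near 0 with a wide SE: 0.19 ± 0.58 for Olfr907, 0.28 ± 0.60 for Tbata, 0.05 ± 0.51 for Vmn2r52, -0.02 ± 0.39 for Rpgrip1 and 0.19 ± 0.46 for Vmn2r100, each with an adjusted p of at least 0.936 apart from Tbata (0.926). None of these 5 passed in the interaction, where the adjusted p was 0.067 to 0.129.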

How the data were processed

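Poly(A) RNA of cultured islets was made into libraries with a strand-specific kit, per the labels' protocols. The authors deposited 1 table of estimated counts per gene (36595 mouse genes, 32 libraries), per the submitters' processing notes with bcl2fastq 1.8.4 and kallisto 0.45.0 on GENCODE M21 (GRCm38). How transcript estimates were summed to genes and made whole, and the strand setting, are not given in the sources used here. The columns are named by set and group, and 0 columns were without a sample. No pair of libraries had identical counts.

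The counts were fitted for all 4 groups together in edgeR 4.0.16 (R 4.3.3), with TMM scaling, filterByExpr, robust quasi-likelihood estimation and the set as a block. Contrasts were tested with glmQLFTest, with Benjamini-Hochberg adjustment over the 16428 genes kept and a threshold of 0.05. Residual degrees of freedom were 21. The SE was derived from the test, as the absolute log2 fold change divided by the square root of the F statistic. The 95% confidence intervals of fold changes use this SE. The set pairs the libraries because the labels' treatment protocol describes 8 sets that each held all 4 groups, and the title carries the set number. Deviations of the 2 genotypes at 11.1 mM correlated within sets to a varying degree (mean r = 0.36, from 0.0565 to 0.841). The best match across genotypes was the library of the same set in 4 of 8 sets only. Library measures were compared by exact sign-flip tests over 256 flips. Within-set differences used log2 of CPM with 0.5 added. CPM was computed here, and levels are compared within a gene only. A gene averaging under 3 counts per library in 1 group is given by counts or levels. Counting intervals are exact at 95% and cover counting error only, since the reads carry no molecular identifiers.

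Named were Iapp, Star, all genes past the threshold, up to 4 members of each list by p, the genes next by p and the 5 largest changes per direction at 16.7 mM. The comparison, the 27 lists and the 20 Mb window were chosen with earlier results of these data known. Positions came from GENCODE M21, in which 627 identifiers had none. Words of 31 bases were counted in the GENCODE M21 transcripts on both strands. Alternatives, 23 in all, changed the scaling, filter, tool (DESeq2 1.42.0, limma 3.58.1), block, covariates or libraries, and 2 of them were added after seeing the data. The test was also run on simulated data. Some list members, among them 1 gene with a library apart from the rest, are not reported here.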

Additional observations from a re-analysis of the deposited data

Results flagged for a closer look

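In 28 of 196 groups of 8 libraries, each group being 1 gene or library measure in 1 genotype at 11.1 mM, the highest or lowest library stood far from the other 7. A chance rate of about 1 in 20 groups would need independent groups with values spread evenly about their mean. These groups share the same libraries, and several hold very low levels. The 28 of 196 therefore cannot be compared with that rate and are a description only.

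The hIAPP library of set 7 was the lowest of its group for Olfr552 (47.8 CPM, next 65.6), Zfp488 (67.9 CPM, next 102), Nudcd1 (50.2 CPM, next 63.9) and Gm13722 (42.9 CPM, next 94.1). It was the highest for Gm7291 (2.43 CPM), Cldn5 (4 CPM), Tbata (41 CPM) and Vmn2r52 (60.6 CPM). The mIAPP library of set 7 had the lowest total of its group, 16.1 in units of 1e6 reads, and the highest level of Cks1brt (1.15 CPM), Gm47632 (11.3 CPM), Tbata (54.2 CPM), Vmn2r52 (16.7 CPM) and Vmn2r100 (16.4 CPM). Both libraries of set 7 had the highest mitochondrial share of their genotype, 27.2% and 34.7%. The part of that share in these levels was not tested.

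In other hIAPP libraries the highest values apart from the rest were Mid1 in set 1 (145 CPM), Fos and S100a9 in set 4 (36.4 and 0.124 CPM), Hhex in set 3 (5.07 CPM) and Cd4 in set 2 (2.21 CPM). In other mIAPP libraries they were Mid1, Gm7291, Rdh16f1 and Cxcl1 in set 8 (531, 0.289, 1.01 and 0.434 CPM), Dnajb9 and Fos in set 4 (258 and 18.4 CPM), Neurog3 in set 3 (6.29 CPM) and Agrn in set 1 (29.2 CPM).

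For 13 of the 94 named genes the genotype difference was not the same at the 2 glucose levels, by the interaction term of edgeR's quasi-likelihood test with Benjamini-Hochberg adjustment over all genes. The values are the log2 fold change at 11.1 mM minus that at 16.7 mM. It was positive for Nr4a1 (1.11, adjusted p = 0.0148), Apoe (0.909, adjusted p = 0.0213) and Slco1a5 (0.829, adjusted p = 0.00915). It was negative for Star (-2.75, adjusted p = 1.35e-06), Gprc5a (-1.33, adjusted p = 0.0332), Olfr552 (-1.05, adjusted p = 0.0438), Vmn1r213 (-0.881, adjusted p = 0.0154), Olfr1238 (-0.792, adjusted p = 0.0241) and Dusp1 (-0.712, adjusted p = 0.047). It was also negative for Cxcl1 (-5.84, adjusted p = 0.00154) and Sprr1a (-4.81, adjusted p = 0.00106). For S100a9 (-10.6, adjusted p = 0.000162) and Rdh16f1 (-10.8, adjusted p = 0.000776) nearly all libraries at 11.1 mM were at 0, and the fitted size depends on the prior count.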

How the results depend on the processing

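The number of genes called at 11.1 mM was 21, and 12 with a minimum mean of 5 CPM, 38 with DESeq2 and 10 in the libraries under 10% mitochondrial counts. Leaving out 1 set gave 15 to 24. In the other settings it was 14 (the 16 libraries alone) to 25. Without the set as a block, that is without the pairing, it was 17 at 11.1 mM, 1301 at 16.7 mM and 196 in the interaction, and 4 calls were lost: Slco1a5 (0.71), Gprc5a (1.30), Nr4a1 (0.97) and Gm47632 (0.97). At 16.7 mM the 3371 calls became 752 with the mitochondrial level as a covariate, 2178 with the Y-linked level, 1133 in libraries under 10% mitochondrial counts, 2221 without those at 30% or more and 1623 to 3841 without 1 set. The 513 interaction calls became 961 with DESeq2, 929 with limma voom, 260 with the mitochondrial covariate, 7 under 10% mitochondrial counts and 239 to 558 without 1 set. The cause was not tested, apart from the fewer genes or libraries some settings hold. The insulin share difference of 0.0802 percentage points ran from -0.667 to 1.26 without 1 set, and the mitochondrial one of -1.64 from -3.46 to -0.455. Of the 21 genes 10 were called in all their alternatives, 4 (Iapp, Hebp1, BC049715, Gm7291) lost the call only under 10% mitochondrial counts, and 7 in 2 or more. Of 2129 recomputed gene values 64 lost and 17 gained the call, and no called gene changed direction. Scaling moved the median of all genes by under 0.1 on the log2 scale. The smallest change called at 11.1 mM was 0.72, which is no limit of detection, since other settings called smaller ones.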

Other observations

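Outside the genes fixed for the comparison, 4 genes passed in 2 or more alternative fits at 11.1 mM without passing in the main edgeR fit. They were chosen after their values were seen. Olfr341, an olfactory receptor gene on chromosome 2, had a log2 fold change of 1.42 with DESeq2 (adjusted p = 0.00765), 1.44 with the mitochondrial level as a covariate (adjusted p = 0.000196 in edgeR) and 1.59 without set 7 (adjusted p = 0.0472 in edgeR). Olfr613, of the same family on chromosome 7, went the other way, at -1.85 with DESeq2 (adjusted p = 0.00108) and -1.99 without set 7 (adjusted p = 0.0256 in edgeR). Hsd3b2, a steroid dehydrogenase gene, was at -0.77 with DESeq2 (adjusted p = 0.0134) and -0.80 with limma voom (adjusted p = 0.0448). Gm48270, on chromosome 10, was at 1.38 without set 7 (adjusted p = 0.0267 in edgeR). It also passed without the libraries at 30% or more mitochondrial counts (1.40, adjusted p = 0.0139 in edgeR). Those are the mIAPP libraries of set 7 at both glucose levels. The fit without set 7 leaves them out too, together with the hIAPP libraries of that set.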
